A study of Mus musculus with 29 samples.

Results

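The 8 acetylcholine receptor genes described here are the 5 muscarinic receptors, Chrm1 to Chrm5, and the nicotinic subunits Chrna4, Chrna7 and Chrnb2. Each was taken as the probe set whose annotation gave that gene's symbol alone, and each of the 8 had exactly 1 such probe set, so no choice between probe sets was needed. They stand among 19938 genes tested. RNA was taken from the caudate nucleus of 29 mice, with 1 array each; the caudate is striatal tissue. HdhQ150 mice model Huntington's disease through an expanded CAG repeat knocked into Htt, the mouse gene of huntingtin, and were compared with wild-type littermates, all of 129/Ola x C57BL6/J background. The HdhQ150 groups held 5, 6 and 4 mice aged 6, 12 and 18 months, and the wild-type groups 5, 5 and 4. The labels give 23 females and 6 males, and every mouse at 18 months was female. Whether the HdhQ150 mice carried 1 or 2 knock-in alleles is not given in the sources used here. Mice of different ages were different animals, and the labels used here give no date of dissection or hybridisation, so age and time of handling cannot be told apart.

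Acetylcholine acts in the striatum through 2 kinds of receptor. Muscarinic receptors are single proteins coupled to G proteins: M1, M3 and M5 (Chrm1, Chrm3, Chrm5) activate phospholipase C through Gq, while M2 and M4 (Chrm2, Chrm4) lower cyclic AMP through Gi/o. Nicotinic receptors are cation channels made of 5 subunits, and in brain the main forms combine alpha4 with beta2 (Chrna4, Chrnb2) or consist of alpha7 alone (Chrna7). The acetylcholine comes mostly from large cholinergic interneurons, which carry M2 and M4 as autoreceptors. Among the projection neurons M1 is broad and M4 is richest in those of the direct pathway, and many nicotinic receptors of the striatum sit on axon terminals whose cell bodies lie elsewhere.

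The 250 bases before the annotated start are shown for 3 genes, Chrm4 and Chrna4 because they passed the test between genotypes and Chrm3 because its level across mice was closest to that of Chrna4. Sequences are from RefSeq, assembly GRCm38.p6, written 5′ to 3′ on the gene's strand, and 7 of the 8 genes had an entry. Capitals mark matches, on either strand, to the letters CAGCACC, the left part of the RE1 element bound by the repressor REST, or GGGCGG, the GC box bound by Sp factors. The searches for GGACAGC (the right part of RE1), GCGNGGGCG (an Egr motif) and TGACGTCA (the cyclic AMP response element) found no match in these 3.
Chrm4, chr2:91921939-91922188, plus strand: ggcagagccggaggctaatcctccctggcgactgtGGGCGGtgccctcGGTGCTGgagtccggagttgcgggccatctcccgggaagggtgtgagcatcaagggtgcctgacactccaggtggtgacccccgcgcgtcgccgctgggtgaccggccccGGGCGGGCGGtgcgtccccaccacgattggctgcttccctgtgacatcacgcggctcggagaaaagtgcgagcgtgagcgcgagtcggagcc
Chrna4, chr2:181039178-181039427, minus strand: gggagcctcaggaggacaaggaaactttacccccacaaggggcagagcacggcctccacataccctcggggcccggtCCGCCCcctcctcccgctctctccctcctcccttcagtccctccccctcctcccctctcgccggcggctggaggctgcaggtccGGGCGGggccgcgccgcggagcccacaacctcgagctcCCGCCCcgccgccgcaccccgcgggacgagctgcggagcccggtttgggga
Chrm3, chr13:10360804-10361053, minus strand: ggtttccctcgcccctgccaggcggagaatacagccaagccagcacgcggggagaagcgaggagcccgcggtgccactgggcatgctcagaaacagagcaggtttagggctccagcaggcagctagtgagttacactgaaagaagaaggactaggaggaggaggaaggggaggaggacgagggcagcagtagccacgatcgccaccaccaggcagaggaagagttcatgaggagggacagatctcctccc
The Chrm4 window held 1 CAGCACC match, read as GGTGCTG, and 3 GC boxes, of which 2 overlap each other. The Chrna4 window held 3 GC boxes, and the Chrm3 window held none of these motifs. GC content was 70% for Chrm4, 74.4% for Chrna4 and 61.2% for Chrm3, against a median of 52.4% over 32851 promoter windows of the same length. Of those windows 5.73% held CAGCACC, 5.28% GGACAGC, 32.7% GGGCGG, 4.7% GCGNGGGCG and 1.55% TGACGTCA. These matches are a description of the letters, and no binding was measured.

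Levels are RMA values on the log2 scale, and array medians lay between 6.91 and 7.05. Htt was lower in HdhQ150, by an average over the ages of -0.37 ± 0.0363 (SE), with no overlap between genotypes at any age. The array of wild-type mouse 12-WT-454 was the least like its own group, correlating at 0.945 on average where its 4 fellows had 0.9747 to 0.978. HdhQ150 mouse 1023, aged 6 months, was labelled female but had Xist at 5.95 and the Y-linked Eif2s3y at 8.30. Labelled males had Xist from 5.5 to 6.13 and Eif2s3y from 7.04 to 8.42. The other labelled females had Xist from 11.11 to 11.64 and Eif2s3y from 3.67 to 4.05. By these 2 genes mouse 1023 was thus like the males, and the main fit kept its label. The markers of striatal projection neurons, 8 genes measured of 9 listed, averaged 10.36 to 11.23 across the 6 groups, and those of excitatory cortical neurons, also 8 of 9, averaged 6.95 to 8.57. Levels of different probe sets cannot be compared, so these averages serve only to compare groups within a list. The number of arrays limits the precision, and in bulk tissue fewer cells of a type and less RNA per cell cannot be told apart.

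Between genotypes, 2 of the 8 receptor genes passed the test in at least 1 comparison, and both were lower in HdhQ150. Chrna4 was lower at 12 months and Chrm4 was lower on average over the 3 ages. At 6 months 0 of the 8 passed limma's test, against 0.0251% of all genes, and 1 had an unadjusted p under 0.05, against 13.7% of all genes. At 12 months 1 of the 8 passed, against 0.938% of all genes and 0.602% in the lower direction, and 4 had an unadjusted p under 0.05, against 8.98%. At 18 months 0 of the 8 passed, against 0.135% of all genes, and 1 had an unadjusted p under 0.05, against 5.81%. For the average over ages 1 of the 8 passed, against 3.06% of all genes and 1.33% in the lower direction, and 4 had an unadjusted p under 0.05, against 14.2%.

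By kind of receptor, the muscarinic genes lay below wild type in 4 of 5 cases at 6 months, 5 of 5 at 12 months and 4 of 5 at 18 months. These counts include differences near 0, namely Chrm1 at 12 months (-0.01) and Chrm5 at 6 months (-0.02). Their signs changed in 9 of 43 and 3 of 42 alternatives. The median differences of the muscarinic genes were -0.079, -0.105 and -0.176 at the successive ages. The nicotinic subunits lay below wild type in 1, 2 and 2 of 3 cases, with medians of 0.076, -0.224 and -0.063. The median over all genes was 0.006, 0.006 and -0.004. Most of these single differences did not pass the test, and neither kind was tested as a set. Within the muscarinic genes the 2 Gi/o-coupled members had a median of -0.138 averaged over the ages and the 3 Gq-coupled members -0.079. The Gi/o value comes mostly from Chrm4 (-0.24), since Chrm2 was at -0.03, and the Gq-coupled members ran from -0.22 to 0.04. The medians therefore show no difference by coupling.

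**Figure D1:**
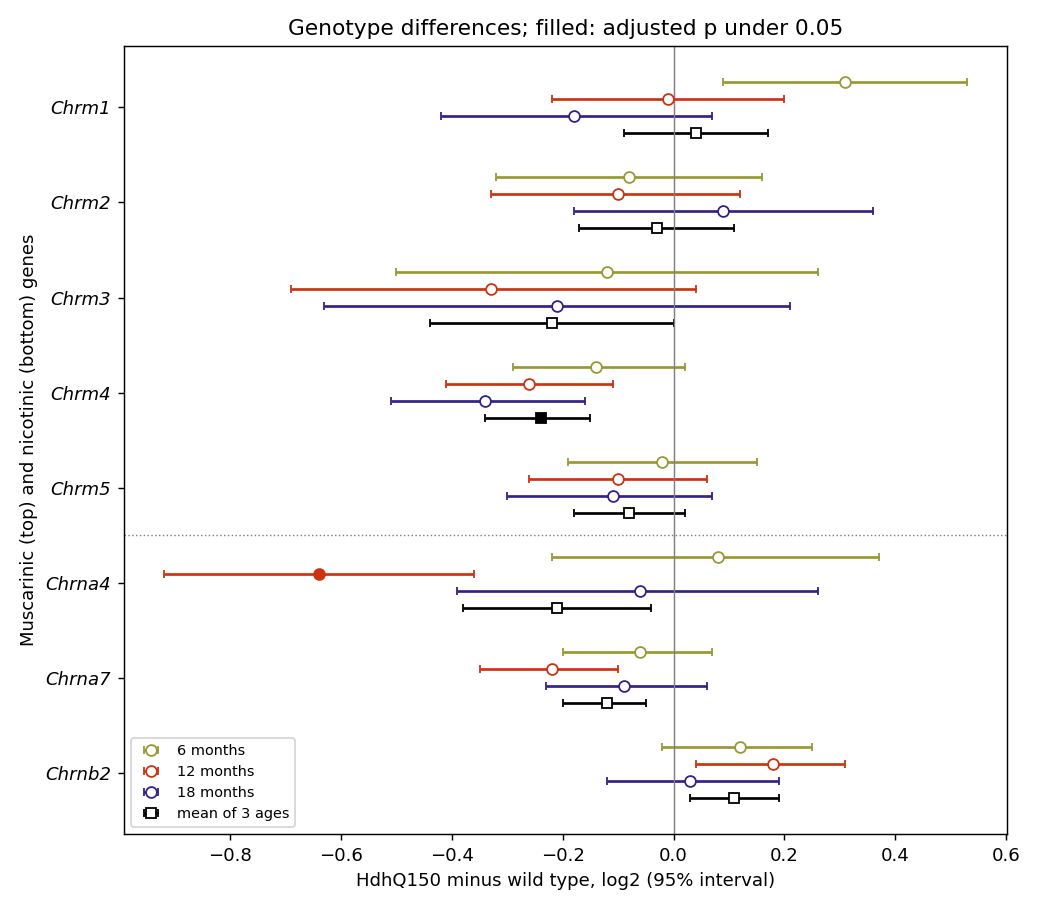
Fitted difference between HdhQ150 and wild type on the log2 scale (horizontal axis) for each receptor gene (vertical axis), at each age and averaged, with 95% intervals; filled symbols passed limma's test at an adjusted p of 0.05. Only Chrna4 at 12 months, at -0.64, and Chrm4 on average, at -0.24, are filled.

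Chrm4 encodes M4, the Gi/o-coupled receptor that opposes dopamine D1 signalling in direct pathway neurons. At 12 months the wild-type mice had Chrm4 log2 levels of 9.28, 9.38, 9.39, 9.44 and 9.45, and the 6 HdhQ150 mice ran from 9.03 through a median of 9.12 to 9.27. Every HdhQ150 mouse thus lay below every wild-type mouse, with the nearest pair almost equal, and 0.908% of all genes had such a separation in this direction at that age. At 18 months the HdhQ150 mice had 8.59, 8.61, 8.72 and 8.91 and the wild-type mice 8.86, 8.96, 9.17 and 9.19, where the highest HdhQ150 mouse passed the lowest wild-type mouse. At 6 months the groups overlapped widely, with 8.91, 8.94, 8.96, 9.21 and 9.24 in HdhQ150 and 9.09, 9.09, 9.19, 9.20 and 9.32 in wild type.

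The fitted Chrm4 difference was -0.14 ± 0.0758 (SE) at 6 months, -0.26 ± 0.0721 at 12 months and -0.34 ± 0.0838 at 18 months. No single age passed limma's test, with adjusted p-values of 0.418, 0.0878 and 0.137. Averaged over the ages, Chrm4 was lower by -0.24 ± 0.0445 (95% interval -0.34 to -0.15), a 1.18-fold difference, with a limma adjusted p of 0.00133. The larger size at later ages did not pass as a change between ages. The change of the difference from 6 to 18 months was -0.20 with a limma adjusted p of 0.643. Without mice 12-WT-454 and 1023 the average was -0.23 with an adjusted p of 0.00209. Leaving out HdhQ150 mouse 415 made the 18-month difference -0.40 with an adjusted p of 0.0343, and array weights made the 12-month adjusted p 0.0415. At each of these ages that was the only 1 of 43 alternatives to pass. Over the 43, adjusted p-values ran up to 0.55 at 18 months and 0.216 at 12 months.

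M4 is carried by projection neurons, and the mean of their 8 markers was 10.63 ± 0.20 (SD, n = 5) in HdhQ150 and 10.79 ± 0.10 (n = 5) in wild type at 6 months, 10.97 ± 0.07 (n = 6) and 11.23 ± 0.08 (n = 5) at 12 months, and 10.36 ± 0.18 (n = 4) and 10.68 ± 0.11 (n = 4) at 18 months. On average over the ages 5 of these 8 genes were lower in HdhQ150 and 0 higher, against 1.33% of all genes called lower. All 8 had negative differences. The 6 direct pathway markers averaged 8.78 in HdhQ150 and 8.79 in wild type at 6 months. The 12-month means were 8.95 and 8.94, and the 18-month means 8.60 and 8.67. Of these 6 only Drd1, the dopamine D1 receptor gene, was lower on average over the ages (-0.35 ± 0.0577, limma adjusted p 0.000441), and the median of the list was 0.020. Of 5 indirect pathway markers measured 4 were lower, against the same 1.33% of all genes, with a median of -0.545. The part of these lists in the Chrm4 result was not tested. The order of Chrm4 group means ran from wild type at 12 months (9.39) through wild type at 6 months (9.18), HdhQ150 at 12 months (9.12), HdhQ150 at 6 months (9.05) and wild type at 18 months (9.04) to HdhQ150 at 18 months (8.71). Only the first and last steps in that order were larger than the SDs of the groups beside them.

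Chrm2 encodes M2, the other Gi/o-coupled receptor and an autoreceptor on cholinergic terminals. Its genotype differences were -0.08 ± 0.118 (SE), -0.10 ± 0.112 and 0.09 ± 0.13 at 6, 12 and 18 months, all with limma adjusted p-values of 0.822 or more. Averaged, the difference was -0.03, with a 95% interval of -0.17 to 0.11. Levels overlapped between genotypes at every age, and at 12 months HdhQ150 ran from 7.93 through a median of 8.07 to 8.15 inside the wild-type range of 7.81 to 8.43. Group means ran from 8.52 in HdhQ150 at 18 months to 8.04 in HdhQ150 at 12 months, and no neighbours in that order differed beyond their SDs. The cholinergic interneuron markers, 8 measured of 9, averaged 7.44 in HdhQ150 and 7.42 in wild type at 6 months. Their means were 7.50 and 7.52 in the 12-month groups, and 7.19 and 7.23 in the 18-month groups. None of those 8 passed limma's test between genotypes at any age, against 0.0251%, 0.938% and 0.135% of all genes. At each age 0 of 8 had an unadjusted p under 0.05, against 13.7%, 8.98% and 5.81%.

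Chrm1 encodes M1, the Gq-coupled receptor of both kinds of projection neuron. At 6 months the HdhQ150 mice had Chrm1 log2 levels of 9.17, 9.47, 9.52, 9.54 and 9.71, against 9.06, 9.07, 9.09, 9.30 and 9.45 in wild type. Of the HdhQ150 values 4 lay above every wild-type value and the lowest lay among them. The difference was 0.31 ± 0.109 (95% interval 0.09 to 0.53) with a limma adjusted p of 0.201, so it did not pass. It did pass without mice 12-WT-454 and 1023, at 0.37 with an adjusted p of 0.0407, and with array weights, at 0.37 with an adjusted p of 0.0203. These were the only 2 of 43 alternatives to pass, and over the 43 the adjusted p ran up to 0.457. At 12 months the difference was -0.01 ± 0.104 and at 18 months -0.18 ± 0.121. The change from 6 to 18 months was -0.48 ± 0.163, with an unadjusted limma p of 0.00588 and an adjusted p of 0.608. Group means ran from 9.49 in HdhQ150 to 9.19 in wild type, both at 6 months, and no neighbouring groups in that order differed beyond their SDs.

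Chrm3 encodes M3, a Gq-coupled receptor found more in cortex than in striatum. Its genotype differences were -0.12 ± 0.186 (SE), -0.33 ± 0.177 and -0.21 ± 0.205 at the successive ages, and -0.22 ± 0.109 on average, with a limma adjusted p of 0.361. At 12 months HdhQ150 mice ran from 7.26 through a median of 7.55 to 8.13 and wild-type mice had 7.62, 7.65, 7.89, 8.0 and 8.36. The groups overlapped, and these errors were the widest of the 8 genes at each age. Chrm5 encodes M5, the Gq-coupled receptor of midbrain dopamine neurons, and its log2 levels ran from 6.24 to 6.79 over all mice. Its differences were -0.02 ± 0.0822, -0.10 ± 0.0782 and -0.11 ± 0.0908, none past the test, and no neighbouring group means of Chrm5 differed beyond their SDs.

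**Figure D2:**
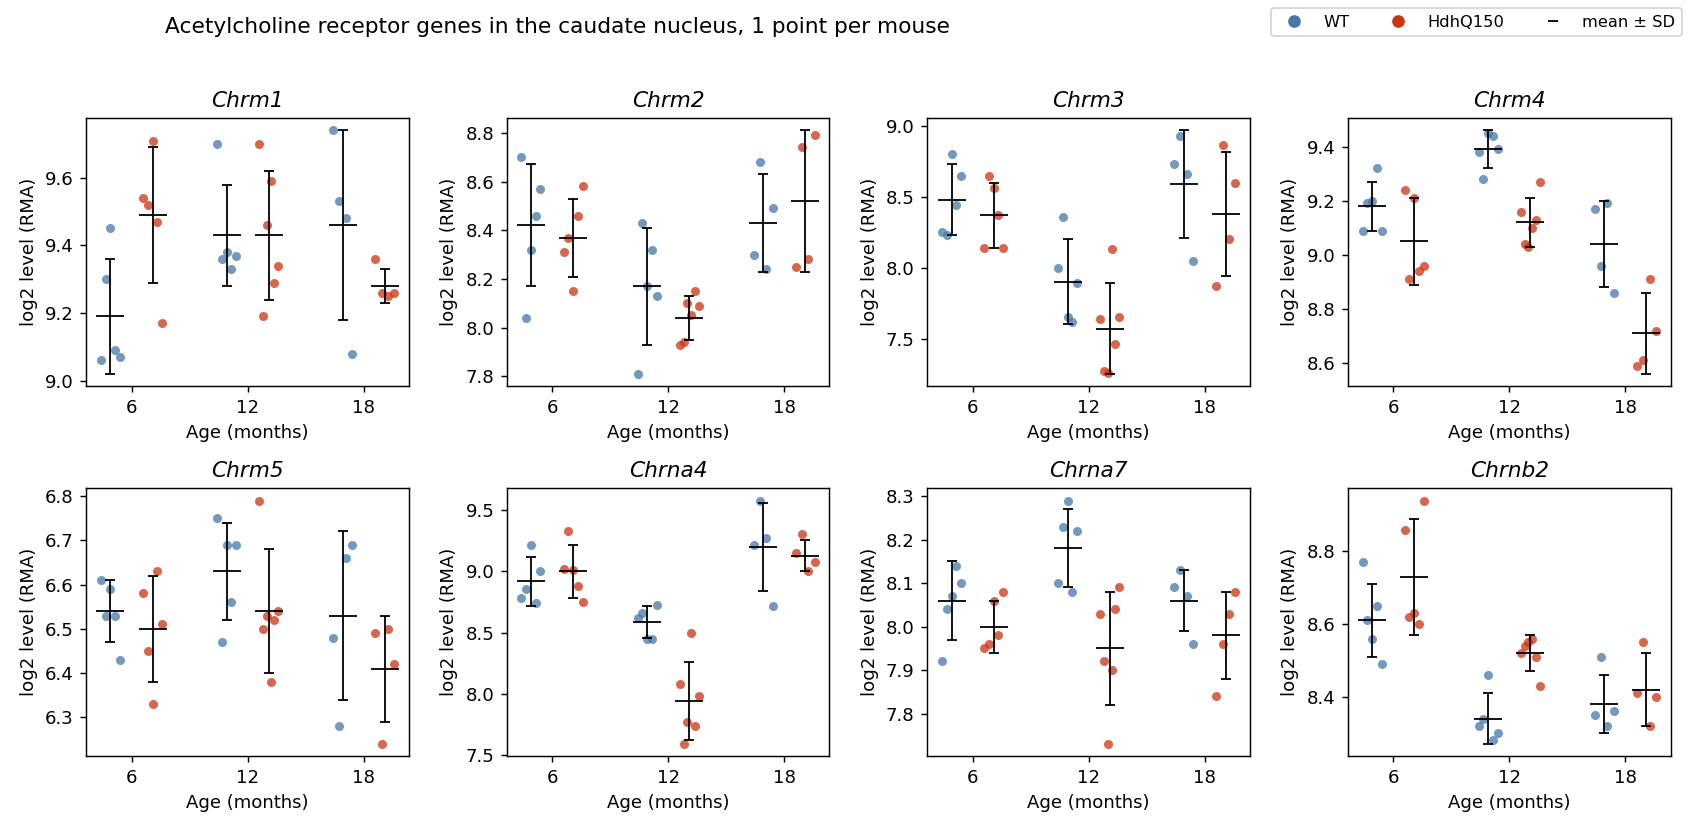
Log2 level (vertical axis) of the 8 receptor genes by age in months (horizontal axis), 1 point per mouse, with group mean and SD, wild type in blue and HdhQ150 in red. The HdhQ150 mice of Chrm4 at 12 months sit between 9.03 and 9.27, under all wild-type mice, and Chrna4 is lowest in HdhQ150 at 12 months, from 7.59 to 8.50.

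Chrna4 encodes the alpha4 subunit, which with beta2 forms the high-affinity nicotine binding receptor of brain. At 12 months the 6 HdhQ150 mice ran from 7.59 through a median of 7.87 to 8.50, while the wild-type mice had 8.45, 8.45, 8.62, 8.66 and 8.73. One HdhQ150 mouse, at 8.50, reached into the wild-type range and the other 5 lay below it. The difference was -0.64 ± 0.137 (95% interval -0.92 to -0.36), a 1.56-fold lower level, with a limma adjusted p of 0.0137. Leaving out each mouse in turn kept the adjusted p between 0.00147 and 0.0491. Labelled females alone gave -0.58 with an adjusted p of 0.0716, and without mouse 1023 as well 0.0666.

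At the other ages Chrna4 did not pass. At 6 months HdhQ150 had 8.75, 8.88, 9.01, 9.02 and 9.33 and wild type 8.74, 8.78, 8.86, 9.0 and 9.22, a difference of 0.08 ± 0.144. At 18 months HdhQ150 had 9.0, 9.08, 9.15 and 9.31 and wild type 8.72, 9.22, 9.27 and 9.58, a difference of -0.06 ± 0.159. The change of the difference from 6 to 12 months was -0.72 ± 0.2, with an unadjusted limma p of 0.00121 that did not pass adjustment (adjusted p 0.709), and from 12 to 18 months it was 0.58 ± 0.21 (adjusted p 1). The difference between ages in the Chrna4 effect is therefore not a call in limma's test. Group means of Chrna4 ran from 9.20 in wild type at 18 months to 7.94 in HdhQ150 at 12 months. Only the steps down to wild type at 12 months (8.59) and from there to HdhQ150 at 12 months were larger than the SDs.

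Cortical markers were also lower in mean level in the groups where Chrna4 was low. The mean of the 8 cortical markers at 12 months was 6.95 ± 0.49 (SD, n = 6) in HdhQ150, from 6.35 to 7.65, and 7.38 ± 0.51 (n = 5) in wild type, from 6.84 to 8.03. Of the 8 genes 7 were lower in HdhQ150 at that age with none past limma's test, against 0.938% of all genes. An unadjusted p under 0.05 was found for 2 of the 8, against 8.98%. Slc17a7, the vesicular glutamate transporter of cortical neurons, differed by -1.03 ± 0.428 and Tbr1, a cortical transcription factor, by -0.78 ± 0.337. With the cortical marker mean as a covariate, a fit chosen after seeing the data, the Chrna4 difference at 12 months was -0.45 with an adjusted p of 0.0166. Tbr1, which is in that mean, is also among the genes whose levels were most like those of Chrna4. The part of cortical tissue in the Chrna4 difference was not tested.

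Chrnb2 encodes beta2, the usual partner of alpha4, and its genotype differences were positive at all 3 ages, where those of Chrna4 were positive at 6 months and negative later. They were 0.12 ± 0.067 (SE), 0.18 ± 0.0638 and 0.03 ± 0.0741 at the successive ages and 0.11 ± 0.0393 on average, with limma adjusted p-values of 0.441, 0.283, 0.993 and 0.143. At 12 months HdhQ150 mice ran from 8.43 through a median of 8.53 to 8.56, and wild-type mice had 8.28, 8.30, 8.32, 8.34 and 8.46. The lowest HdhQ150 mouse lay below the highest wild-type mouse and the rest were separated. None of these differences passed the test. The highest mean was that of HdhQ150 at 6 months (8.73) and the lowest that of wild type at 12 months (8.34). In that order only the step from HdhQ150 at 12 months (8.52) to HdhQ150 at 18 months (8.42) was larger than both SDs.

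Chrna7 encodes alpha7, the subunit of a channel with high calcium permeability found on glutamatergic terminals. At 12 months HdhQ150 mice ran from 7.73 through a median of 7.97 to 8.09 and wild-type mice had 8.08, 8.10, 8.22, 8.23 and 8.29. One HdhQ150 mouse passed the lowest wild-type mouse. The difference was -0.22 ± 0.062 with a limma adjusted p of 0.0868, and averaged over the ages it was -0.12 ± 0.0382 with an adjusted p of 0.0747. The average passed under 5 of 42 alternatives, among them without mouse 12-WT-454 (-0.13, adjusted p 0.0436), and over the 42 the adjusted p ran up to 0.163. At 12 months it passed with array weights (adjusted p 0.0362) and with the test limited to the brighter genes (0.042). These were 2 of 43 alternatives, over which the adjusted p ran up to 0.314. At 6 and 18 months the differences were -0.06 and -0.09. The highest group mean, wild type at 12 months (8.18), stood above the next by more than the SDs, and the other 5 group means, from 8.06 to 7.95, did not differ from their neighbours beyond theirs.

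None of the 8 genes passed limma's test of the change of the genotype difference between ages. From 6 to 12 months 0 of 8 passed, against 0.00502% of all genes, and 2 had an unadjusted p under 0.05, against 6.51%. From 12 to 18 months and from 6 to 18 months 0 of 8 passed, against 0% of all genes in both. In those 2 comparisons 1 of 8 had an unadjusted p under 0.05, against 2.07% and 8.17% of all genes.

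For several of the genes the fitted differences were larger between ages than between genotypes, though the 2 kinds were not compared by a test. Many other genes also differed between ages, and age cannot be told apart from time of handling. In wild type 2 of 8 were lower at 12 than at 6 months. That is close to the share of all genes called, 25.7%, of which 12.6% were lower. The 2 were Chrm3 (-0.59 ± 0.186, limma adjusted p 0.0207) and Chrnb2 (-0.27 ± 0.067, adjusted p 0.00408). From 12 to 18 months 3 of 8 passed in wild type, against 5.87% of all genes, 3.81% higher and 2.07% lower. Chrm3 (0.67 ± 0.197, adjusted p 0.0358) and Chrna4 (0.61 ± 0.152, adjusted p 0.0121) were higher and Chrm4 was lower (-0.36 ± 0.0803, adjusted p 0.00471). Between 6 and 18 months 0 of 8 passed in wild type, against 6.27% of all genes, with 2 at an unadjusted limma p under 0.05 against 22.6%.

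In HdhQ150 mice 4 of 8 were lower at 12 than at 6 months, against 23.1% of all genes called and 11.2% called lower. They were Chrna4 (-1.06 ± 0.137, limma adjusted p 4.48e-06), Chrm3 (-0.79 ± 0.177, adjusted p 0.00169), Chrnb2 (-0.21 ± 0.0638, adjusted p 0.0154) and Chrm2 (-0.31 ± 0.112, adjusted p 0.0463). From 12 to 18 months 4 of 8 passed, against 5.79% of all genes, 4.18% higher and 1.61% lower. Chrna4 (1.19 ± 0.15, adjusted p 1.2e-05), Chrm3 (0.79 ± 0.193, adjusted p 0.0108) and Chrm2 (0.42 ± 0.123, adjusted p 0.0366) were higher and Chrm4 was lower (-0.44 ± 0.0789, adjusted p 0.000686). Between 6 and 18 months 2 of 8 passed, both lower, against 4.65% of all genes and 2.37% called lower, namely Chrm4 (-0.36 ± 0.0803, adjusted p 0.00811) and Chrnb2 (-0.31 ± 0.071, adjusted p 0.00979). The 12-month groups held the lowest means of Chrm3, Chrna4 and Chrm2 in both genotypes. Whether the genotypes differ in these age differences is the test of the change given above, and no receptor gene passed it.

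Several of these age calls were lost when a single mouse was left out. Mice outside the compared groups can matter too, since all groups share 1 estimate of the spread. The HdhQ150 calls of Chrm2 were the least stable: from 6 to 12 months the call was lost when any 1 of 13 mice was left out, with differences from -0.26 (mouse 1003) to -0.33 (mouse 1001) and an adjusted p of 0.107 without mouse 1023. From 12 to 18 months Chrm2 lost its call without any 1 of 8 mice, down to 0.34 without mouse 412 and 0.33 without mouse 426. Chrm3 in HdhQ150 over those later ages lost its call without mouse 412 (0.63) or 426 (0.72). In wild type, Chrm3 from 12 to 18 months lost its call without any of 12-WT-488, 12-WT-508, 12-WT-527, 18-WT-400, 18-WT-401 or 18-WT-414, with differences from 0.56 to 0.67. From 6 to 12 months it lost its call without any of 12-WT-488, 12-WT-508, 6-WT-1011 or 6-WT-1020 (-0.50 to -0.55). Chrna4 in wild type from 12 to 18 months was 0.48 without 18-WT-401 (adjusted p 0.0967), and Chrnb2 in HdhQ150 from 6 to 12 months was -0.16 without mouse 1023 and -0.18 without mouse 1001 (adjusted p 0.0593 and 0.0554).

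**Figure D3:**
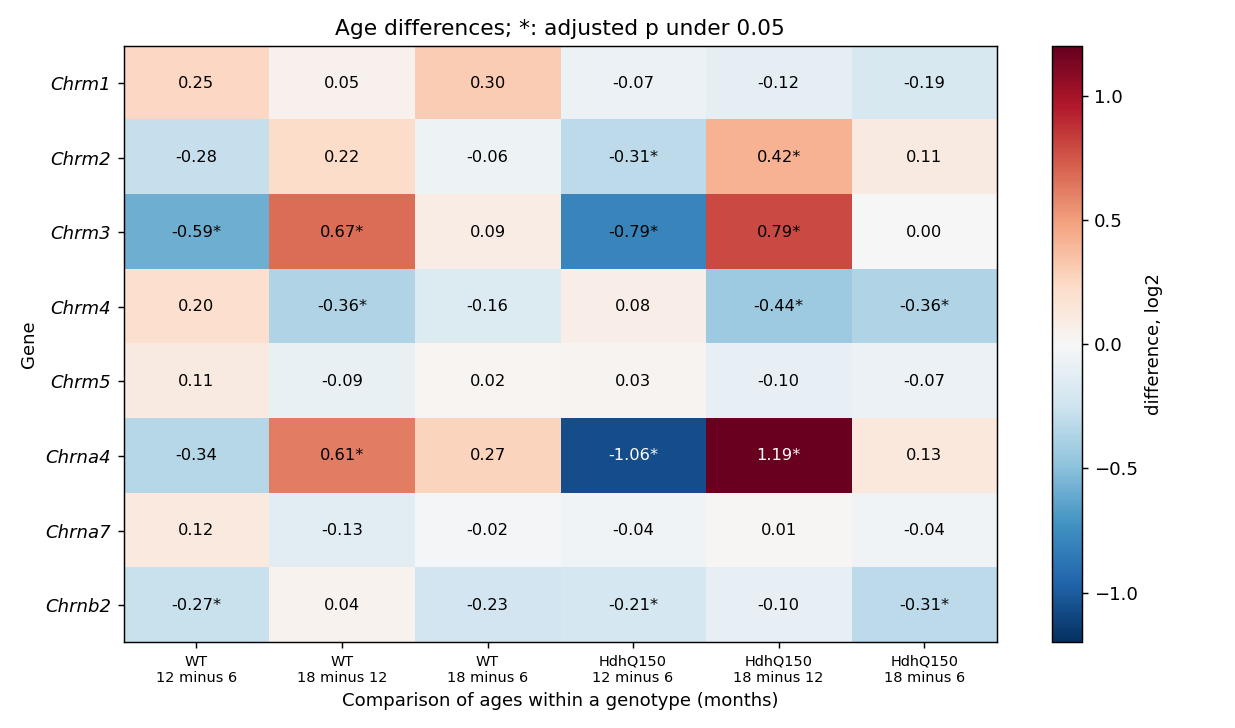
Fitted differences between ages on the log2 scale, shown by colour and number, for each receptor gene (vertical axis) and each pair of ages within a genotype (horizontal axis); a star marks a limma adjusted p under 0.05. The strongest colours are Chrna4 in HdhQ150, at -1.06 and 1.19, and Chrm3 in both genotypes.

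The tissue markers also differed between ages, and the shares of all genes called in these comparisons are those given above. In wild type 6 of the 8 cortical markers were lower at 12 than at 6 months and 5 were higher at 18 than at 12 months, with median differences of -1.114 and 1.300. In HdhQ150 the counts were 7 and 6, with medians of -1.338 and 1.411. The projection neuron markers went the other way, and all 8 were higher at 12 than at 6 months in wild type (median 0.397), 6 of 8 in HdhQ150 (median 0.333), and all 8 were lower at 18 than at 12 months in both (medians -0.535 and -0.617). Of the thalamic and habenular markers 3 of 8 in wild type and 2 of 8 in HdhQ150 were lower at 12 than at 6 months. Of all genes 12.6% and 11.2% were called lower there. With the cortical marker mean as a covariate, Chrm3 lost all 4 of its age calls and turned sign, from -0.59 to 0.10, 0.67 to -0.14, -0.79 to 0.11 and 0.79 to -0.18. Chrna4 lost its 3 age calls there, at 0.06 for wild type from 12 to 18 months (adjusted p 0.978) and at -0.44 and 0.53 for HdhQ150 from 6 to 12 and from 12 to 18 months (adjusted p 0.0875 and 0.19). The Chrm4 differences from 12 to 18 months kept their sizes, at -0.34 and -0.41, but no longer passed (adjusted p 0.164 and 0.198). Both Chrm2 calls in HdhQ150 (-0.30 and 0.41) and the Chrnb2 call in HdhQ150 from 6 to 12 months (-0.30) were lost there too. The covariate itself differed between ages, with group means of 6.95 and 7.38 at 12 months and 8.28 to 8.57 at the other ages. That fit therefore cannot tell age from tissue makeup, and the cause of the lost calls was not tested. The HdhQ150 difference of Chrm4 between 6 and 18 months passed under every alternative run. Over those ages in HdhQ150 all 8 projection neuron markers were negative (median -0.245) with 2 called lower, all 5 indirect pathway markers were negative (median -0.384) with 2 called lower, and 5 of 6 direct pathway markers were negative (median -0.200) with 0 called by limma and 3 at an unadjusted p under 0.05. Their part in the Chrm4 difference was not tested.

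**Figure D4:**
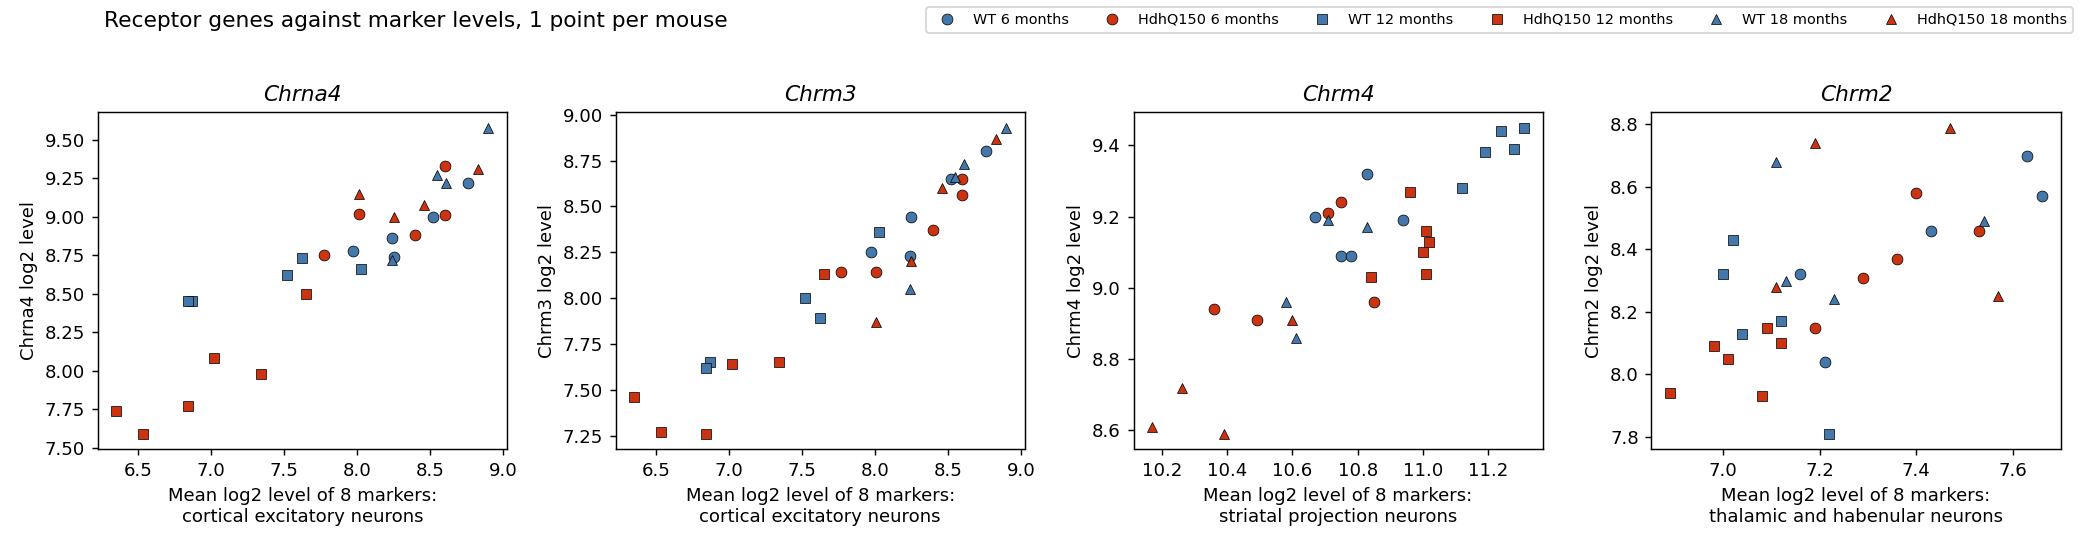
Log2 level of Chrna4, Chrm3, Chrm4 and Chrm2 (vertical axes) against the mean log2 level of 8 marker genes of the cell type named under each panel (horizontal axes), 1 point per mouse, with colour for genotype and shape for age. The 12-month mice have cortical marker means from 6.35 to 8.03, overlapping the lowest mice of the other ages (from 7.77), and the lowest levels of Chrna4 and Chrm3 lie among them.

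Across the 29 arrays the closest pair of receptor genes was Chrm3 and Chrna4, with a Pearson r of 0.90 over levels and 0.79 after removing group means. These correlations are descriptions, since arrays of a group share genotype, age and tissue makeup. The genes most like Chrm3 were Rap2a, a small GTPase (r = 0.954), Cckbr, a cholecystokinin receptor (0.951), and C1ql3, a secreted synaptic protein (0.950). Those most like Chrna4 were Etl4 (0.932), the cortical transcription factor Tbr1 (0.930) and Efhd2, a calcium-binding protein (0.929). Chrm4 was most like genes known for high levels in striatum, namely Rasgrp2 (0.911), Scn4b, a sodium channel beta subunit (0.906), and Ppp1r1b, which encodes DARPP-32 (0.897). After removing group means the 3 values for Chrm4 were 0.646, 0.604 and 0.646.

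The remaining genes had neighbours of lower correlation. Chrm2 was closest to Sparcl1 (0.866), Nkrf (0.847) and Plcb4, a phospholipase C (0.846), and Chrm1 to Mast3 (0.836), Atg9a (0.832) and E2f4 (0.827). Chrnb2 was closest to Atxn7l1 (0.846), Pcsk1n (0.793) and Ddx39b (0.789), and the value for Pcsk1n was 0.133 after removing group means. Chrna7 was closest to Homer1, a postsynaptic scaffold (0.802), Rnf149 (0.797) and Ap3b1 (0.783). Chrm5 had the weakest set, with Cybrd1 at 0.761 and H2az2 and Pdzph1 both at 0.740. Chrm4 and Chrna4, the 2 genes that passed between genotypes, had an r of -0.32 over levels and 0.03 after removing group means.

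Other genes of acetylcholine signalling were read from lists. Of 13 other nicotinic subunits 0 passed limma's test in any genotype comparison. Of all genes 0.0251%, 0.938% and 0.135% passed at 6, 12 and 18 months and 3.06% on average. The same shares apply to the counts of 0 that follow, and lists this short can hold 0 at such shares. The smallest p on average was that of Chrnb4 (0.15 ± 0.0632, unadjusted p 0.0252, adjusted p 0.247). It was the only one of the 13 with an unadjusted p under 0.05 there, against 14.2% of all genes. Of 9 genes for synthesis, transport and breakdown of acetylcholine 0 passed between genotypes. Ache, the enzyme that breaks acetylcholine down, had an average difference of 0.20 ± 0.0633 (adjusted p 0.0818), and Chat, which makes it, 0.03 ± 0.0689. Of 9 genes for assembly or binding proteins of nicotinic receptors 0 passed, and Lynx1, a membrane-anchored toxin-like inhibitor of alpha4beta2 receptors, had an average difference of -0.19 ± 0.0624 (adjusted p 0.106), with -0.11, -0.38 and -0.08 at 6, 12 and 18 months. Of 5 receptor kinases and arrestins measured 0 passed, and Grk6 had an average of 0.09 ± 0.042 (adjusted p 0.321).

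Some genes that act downstream of muscarinic receptors passed between genotypes. Of 12 Gq signalling genes measured, 3 were lower in HdhQ150 averaged over the ages and 0 higher, against 1.33% of all genes lower. They were Kcnq5, a subunit of the potassium channel that muscarinic receptors close (-0.26 ± 0.0488, limma adjusted p 0.00207), the protein kinase C gene Prkcb (-0.13 ± 0.0341, adjusted p 0.0239) and Plcb1, a phospholipase C (-0.16 ± 0.045, adjusted p 0.0431). Prkcb was also lower at 12 months (-0.22 ± 0.0553, adjusted p 0.0499). Of 13 genes of Gi/o signalling, 2 were lower and 1 higher on average, against 3.06% of all genes called in either direction. Adcy5, the main adenylyl cyclase of striatum (-0.36 ± 0.0532, adjusted p 8.76e-05), and Rgs9, a regulator that ends Gi/o signals there (-0.45 ± 0.0709, adjusted p 0.000218), were lower, and the G protein subunit Gnai2 was higher (0.13 ± 0.0363, adjusted p 0.0429). Adcy5 was the only one of the 13 called at a single age, 12 months (-0.38 ± 0.0864, adjusted p 0.0241). Adcy5 and Rgs9 are also in the list of projection neuron markers, and the median difference was -0.014 for the Gq list and -0.002 for the Gi/o list, beside 0.000 over all genes.

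Some cholinergic markers were lower at the latest age. Chat was lower at 18 than at 12 months by -0.50 ± 0.125 in wild type (limma adjusted p 0.0119) and -0.44 ± 0.122 in HdhQ150 (adjusted p 0.026), and Slc10a4, a transporter-like protein of cholinergic vesicles, by -0.70 ± 0.165 and -0.62 ± 0.162 (adjusted p 0.00719 and 0.0176). Of the 8 cholinergic interneuron markers 3 were lower at 18 than at 12 months in wild type, against 2.07% of all genes. In HdhQ150 2 were lower, against 1.61% of all genes. Chrm2, which these neurons also carry, was higher in HdhQ150 over the same ages, by 0.42, and differed by 0.22 ± 0.125 in wild type (adjusted p 0.419).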

How the data were processed

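Total RNA of 29 caudate samples, 1 array per mouse, was measured. The deposited values are log2 levels, which the authors computed by RMA in Affymetrix Expression Console according to the submitters' processing notes, with no version or option named in the labels. Genotype, age and sex came from the labels. Of 35556 probe sets 21789 had 1 symbol. The probe set with the highest mean was kept per gene, which left 19938 genes, with names updated through Entrez IDs.

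The test was limma 3.58.1 under R 4.3.3 (lmFit, then eBayes with trend) over 29 arrays, with 6 group means and labelled sex, 22 residual degrees of freedom, two-sided p-values and Benjamini-Hochberg adjustment over all 19938 genes at 0.05. Fitted differences are adjusted for sex and can differ from differences of means. Each replicate is a separate animal. The fit was tested on simulated data.

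The 8 members and the lists were chosen with earlier results of these data known. All members are named in every comparison. Of the other lists of acetylcholine signalling, genes past the threshold between genotypes are named, and otherwise up to 4 with the smallest p in the averaged difference. Of the cell type marker lists, not all are described and not every gene past the threshold is named. Slc17a7, Tbr1, Chat and Slc10a4 were named after their values were seen. For each member the 3 genes with the highest Pearson r are named, predicted genes left out. Alternatives were other probe set rules, sex terms, array weights, eBayes options, centring, samples, leaving out each mouse, and, chosen after seeing the data, the cortical marker mean as a covariate. A step between group means was called beyond the spread where it passed the larger SD of both groups.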

Additional observations from a re-analysis of the deposited data

Results flagged for a closer look

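Values of 2 mice for Chrm1 stood apart from the rest of their group, among 48 combinations of receptor gene and group that were checked with Dixon's test at its 95% level. Chance alone gives such values in a small share of groups, and a count of 2 among 48 can arise that way. In wild type at 12 months, mouse 12-WT-454 had a Chrm1 level of 9.70, while the other 4 mice lay between 9.33 and 9.38. The same array was the least like its group over all genes. In HdhQ150 at 18 months, mouse 383 had a Chrm1 level of 9.36, while the others lay between 9.25 and 9.26. The gap is small, and that group had an SD of 0.05 where the other Chrm1 groups had 0.15 to 0.28. The cause of either value was not tested.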

How the results depend on the processing

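Of 104 differences of the 8 receptor genes 17 passed the main test. Of these, 2, both of Chrm4 (averaged between genotypes, and HdhQ150 from 6 to 18 months), passed under each of the 14 other settings that gave a value and with each of 29 mice left out. The direction was kept throughout by 13 of the 17. The other 4, all of Chrm3 by age, changed sign with the cortical marker mean as a covariate, to 0.10 and -0.14 in wild type and 0.11 and -0.18 in HdhQ150 (6 to 12 and 12 to 18 months). Of the 87 not called, 11 passed under some setting. The cause of these changes and of those below was not tested.

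The number of receptor genes past the threshold between genotypes at 6 months, 0, became 1 with array weights or without mice 12-WT-454 and 1023. At 12 months 1 became 0 among labelled females, with or without mouse 1023, 2 among the brighter genes and 3 with array weights. For the average, 1 became 2 among females without mouse 1023, among the brighter genes, with array weights and without both mice. For wild type from 6 to 12 months 2 became 1 among females, with or without mouse 1023, and 4 with the compared groups alone. From 6 to 18 months 0 became 1 with no sex term, with arrays centred or without both mice, and 2 with array weights. For HdhQ150 the compared groups alone gave 2 from 12 to 18 months and 1 from 6 to 18 months, and females without mouse 1023 gave 2 from 6 to 12 months. Smaller changes were also seen. In wild type 2 became 3 from 6 to 12 months with no sex term or with arrays centred. From 12 to 18 months 3 became 2 with all probe sets tested or robust eBayes. In HdhQ150 4 became 3 from 6 to 12 months among labelled females, with all probe sets, with eBayes without trend or without both mice. From 12 to 18 months 4 became 3 with all probe sets. The cortical covariate left 0 for wild type from 12 to 18 months and for HdhQ150 from 6 to 12 and from 12 to 18 months. Leaving out each mouse gave 0 to 1 at 18 months and 1 to 2 for the average between genotypes, 1 to 4, 1 to 3 and 0 to 2 for the wild-type age comparisons (6 to 12, 12 to 18 and 6 to 18 months), and 2 to 4 for the first and second of these in HdhQ150.

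Counts over all genes, from the lowest to the highest setting, were 2 to 1330 between genotypes at 6 months (main 5), 103 to 656 at 12 months (187), 1 to 43 at 18 months (27) and 446 to 1644 averaged (610). By age they were 2072 to 7434 (5121), 158 to 2027 (1171) and 248 to 2395 (1250) in wild type, and 387 to 7098 (4599), 11 to 2171 (1154) and 598 to 2489 (927) in HdhQ150. The changes of the genotype difference gave 1 to 2 (1), 0 to 0 (0) and 0 to 6 (0).

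No paired analysis was possible because the mouse numbers in the labels are not shared between groups. With 4 to 6 mice per group the number of arrays limits what can be detected, and a gene that missed the threshold is not shown to be equal.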
